A study of Rattus norvegicus with 12 samples.

Results

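Rgs2, Rgs3, Rgs4, Rgs5, Rgs7, Rgs8, Rgs10, Rgs12, Rgs16 and Rgs17, 10 genes of the family of regulators of G protein signalling (RGS), were read from DNA microarrays of PC12 cells given PACAP38. The members were found as all non-control probes that carried 1 of these symbols as their gene name, which gave 19 of the 41012 probes on the array, for 10 of 33212 gene names. PC12 cells derive from a tumour of rat adrenal chromaffin cells and extend neurites when they differentiate, and PACAP38 is a neuropeptide of the secretin and VIP family. The treated cells received PACAP38 at 0.1 µM for 5, 10, 15, 30, 60 or 120 min, and each time point had its own control RNA from PC12 cells that the labels give only as Control, without naming a vehicle. RNA of 6 preparations was pooled, per the methods of the study. Each pair of pools, PACAP38 and control, was put on 2 arrays with the dyes Cy3 and Cy5 exchanged, so that 12 arrays on 3 slides held 6 time points. The 2 arrays of a time point share their RNA, so each time point is 1 sample, no test is possible at a single time point, and both array values are given where an error would otherwise stand.

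RGS proteins speed the hydrolysis of GTP on G alpha subunits and thereby shorten signalling by receptors that couple to G proteins. The receptor PAC1, through which PACAP38 acts, couples to Gs, which activates adenylate cyclase, and to Gq, which activates phospholipase C. Rgs2 is known to act mainly on Gq and to be an early response gene in many cells, Rgs4, Rgs5, Rgs8 and Rgs16 are small members of the same subfamily that act on Gi and Gq, and Rgs3 is a longer member of it. Rgs7 works as a dimer with the G beta subunit Gnb5 in neurons, Rgs10 and Rgs12 act on Gi, and Rgs17 acts on Gi and Gz.

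6 of the 10 members lay on chromosome 13. In the rat build rn4, which the files use, the only Rgs2 probe matched chr13:57890958-57891017 on the minus strand, the brighter Rgs4 probe chr13:85534099-85534158 on the minus strand, and the Rgs5 probe chr13:85480542-85482176 on the plus strand. Rgs8 and Rgs16 were neighbours too, at chr13:68769022-68769081 and chr13:68812443-68812502, and Rgs7 was at chr13:90732436-90732495. No exon or UTR annotation of this build was used here. The promoters of the 2 members that were counted as changed are shown to give the sequence context of their genes. They are the 250 bases before the start of each gene in RefSeq (build GRCr8, minus strand), at chr13:58352667-58352916 for Rgs2 and chr13:84475885-84476134 for Rgs4, written 5′ to 3′ with the motif matches in capitals.

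Rgs2: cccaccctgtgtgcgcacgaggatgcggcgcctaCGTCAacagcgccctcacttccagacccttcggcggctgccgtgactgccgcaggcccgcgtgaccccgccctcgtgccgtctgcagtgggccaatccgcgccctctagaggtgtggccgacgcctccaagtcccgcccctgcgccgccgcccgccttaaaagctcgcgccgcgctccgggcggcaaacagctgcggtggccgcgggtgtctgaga

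Rgs4: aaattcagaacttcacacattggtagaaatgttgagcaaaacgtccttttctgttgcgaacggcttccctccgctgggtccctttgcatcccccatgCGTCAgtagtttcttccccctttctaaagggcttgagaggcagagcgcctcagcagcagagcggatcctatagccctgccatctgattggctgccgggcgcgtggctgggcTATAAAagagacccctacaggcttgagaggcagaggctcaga

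The motifs searched, on both strands, were TGACGTCA (the full cAMP response element), its short site TGACG or CGTCA, the CArG box of the serum response factor, GCGGGGGCG (the Egr site) and TATAAA. A full element contains both short sites. In these windows Rgs2 held 1 short site, CGTCA, starting 216 bases before the start, and Rgs4 held 1 short site, CGTCA, 153 bases before the start and a TATAAA 42 bases before it. Rgs3 held TGACG 29 bases and TATAAA 184 bases before its start, and the other 7 members held none of the 5 motifs. A short site was found in 18.2% and TATAAA in 12.9% of all 33469 promoters, against 3 and 2 of the 10 members. These matches describe letters and do not show binding. The Rgs2 window was 72.4% G or C with 33 CpG, and the Rgs4 window 54.4% with 10 CpG.

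Between 38.4% and 49.6% of the probes of an array channel were well above background, a flag of the scanner software, and no spot was saturated. Of the markers fixed for PC12 and chromaffin cells, Th, Dbh, Chga, Chgb, Slc18a1 and Phox2a were well above background in both RNAs on all 12 arrays. Of the markers of other cells, S100b and Ptprc were above background on 0 arrays. Col1a1 was above background on all 12.

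The Rgs members fell into 3 groups by detection. Rgs4, Rgs5, Rgs7, Rgs10 and Rgs17 were measured in both RNAs at all 6 time points, Rgs2 was below the detected range at 5 and 10 min and well above background in the PACAP38 RNA from 15 min on, and Rgs3, Rgs8, Rgs12 and Rgs16 were mostly not well above background in either RNA. Rgs8, Rgs12 and Rgs16 were above background on none of the 12 arrays with any of their 6 probes. A member of this last group can be present below the range of the array.

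**Figure D1:**
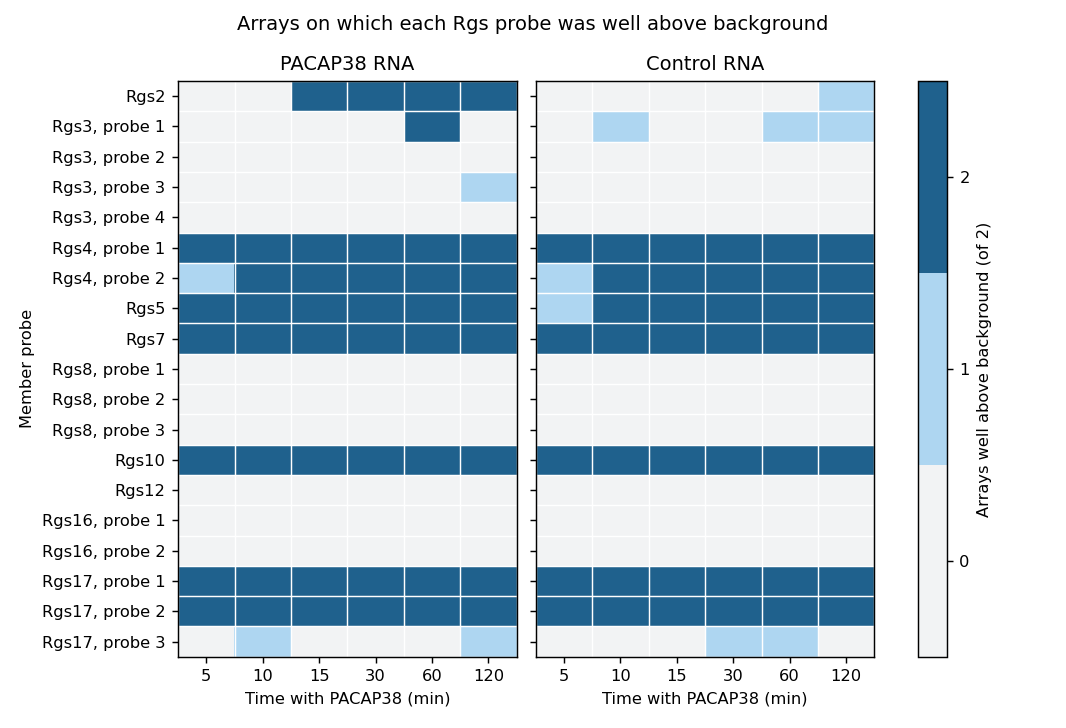
Number of arrays (of 2 per time point) on which each of the 19 Rgs probes was well above background, for PACAP38 RNA (left) and control RNA (right) against time in min. Rgs2 is the only probe that is empty early and filled in the PACAP38 RNA on both arrays from 15 min on, while its control RNA is filled on 1 array at 120 min.

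PACAP38 up-regulated Rgs2 from 15 min, and its signal was highest at 120 min. At 5 min the processed signal of Rgs2, in arbitrary units, was 9.20 and 12.8 in the PACAP38 RNA on the 2 arrays and 8.80 and 11.4 in the control RNA, and at 10 min it was 19.7 and 26.3 against 9.70 and 7.72. All 8 of these values were not well above background, so no fold is given for 5 and 10 min. At 15 min the PACAP38 signals were 53.0 and 40.6 against 9.32 and 5.63 in the control RNA. At 30 min they were 228 and 232 against 12.01 and 5.75. At 60 min they were 1803 and 1851 against 12.1 and 8.48. At 120 min the PACAP38 RNA gave 7579 and 7792 and the control 30.0 and 27.3. The PACAP38 and control signals did not overlap from 15 min on. In the PACAP38 RNA, the arrays of a time point differed less over these times than neighbouring time points did. This did not hold for the control RNA, which read 12.01 and 5.75 at 30 min.

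**Figure D2:**
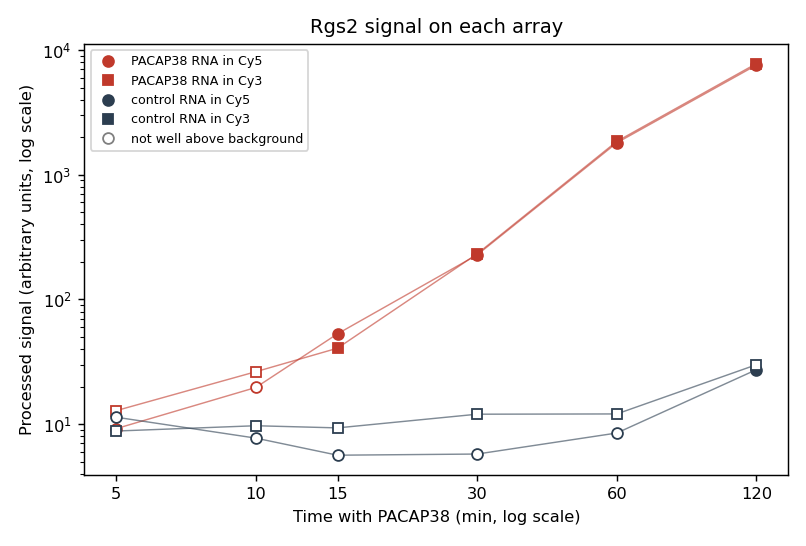
Processed signal of the Rgs2 probe (arbitrary units, log axis) against time with PACAP38 (min, log axis) on each of the 12 arrays, red for PACAP38 RNA and dark for control RNA, circles for Cy5 and squares for Cy3, open where not well above background. The PACAP38 signals climb from 9.20 and 12.8 at 5 min to 7579 and 7792 at 120 min, whereas no control signal exceeds 30.0.

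Rgs2 was counted as higher at 15, 30, 60 and 120 min by a rule built on the fold and p-value limits that the study used, which asked each of the 2 arrays for a change of at least 2-fold, in 1 direction, and for a p-value of the scanner software below 0.01. It was the only member probe of 19 counted as higher at each of these times, where 0.0902%, 0.249%, 0.87% and 1.95% of all probes were counted as higher. None of the 19 was counted at 5 min, where no probe of the array was, nor at 10 min, where 0.0658% of all probes were higher. None was counted as lower at 15, 30 or 60 min, where 0.0268%, 0.102% and 0.375% of all probes were. Since the control RNA was not well above background on either array, the fold is a lower bound at 15, 30 and 60 min. It was taken after scaling of the arrays to each other, against the lowest signal of any probe well above background. This floor is not a detection limit of the Rgs2 probe itself, so the bound holds only for these processed signals. By this measure Rgs2 at 15 min was at least 2.55-fold higher than in the control. The bound was at least 12.7-fold higher at 30 min. It was at least 103-fold higher after 60 min. At 120 min the fold was 285 on the array with PACAP38 in Cy3, where the control signal was well above background. The ratio was 253 on the array with PACAP38 in Cy5, where the control was not well above background, and 269 as the mean of both, so only 1 array measured both RNAs. Among 18396 probes with both RNAs above background on at least 1 array at 120 min, 1 had a larger fold, a probe of Nr4a3, an orphan nuclear receptor and early response gene, with 449 (737 and 274 on the 2 arrays). The control of this probe, like that of Rgs2, was well above background on only 1 array. On the array with PACAP38 in Cy3 the order was turned, with 285 for Rgs2 against 274. Probes with a control above background on neither array were left out, so this is not a rank among all induced genes. With another background correction, normexp with an offset of 50 and loess, the Rgs2 folds from 15 to 120 min were 1.17, 1.80, 9.36 and 23.7. The direction was the same, but Rgs2 was no longer counted before 60 min. At 15, 30 and 60 min these folds lie under the bounds above, so the bounds do not hold with this correction. The rank was not repeated on these values.

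The rise was uneven over time. After scaling, the PACAP38 level of Rgs2 was 4.60-fold higher at 30 min than at 15 min (4.10 and 5.17 with PACAP38 in Cy5 and in Cy3), 5.99-fold higher at 60 than at 30 min (5.51 and 6.51), and 3.50-fold higher at 120 than at 60 min (3.47 and 3.52). The 15 and 30 min arrays shared a slide, and so did the 60 and 120 min arrays, but 30 and 60 min did not. The control level was between 8.57 and 10.3 from 5 to 60 min and 20.1 at 120 min. It was the highest of the 6 control pools at 120 min, where it was well above background on 1 array.

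Over the 6 time points, the log2 ratio of PACAP38 over control of Rgs2 had a slope of 1.90 per doubling of time (SE 0.11, 95% interval 1.63 to 2.16), with an adjusted p = 0.00307 in limma over 20275 probes. Rgs2 entered this fit through its PACAP38 RNA, the RNA in which it was high, since its control was well above background on 1 of the 12 arrays, and with both RNAs required on every array it could not be fitted. The slope, the mean and the counts that follow are therefore a description. Of the 9 member probes fitted, Rgs2 was the only one with a slope above 0 that passed, against 3.37% of all fitted probes. With normexp the slope was 1.05 after loess and 1.02 after median centring (limma adjusted p = 0.0255 and 0.0046). Its mean log2 ratio over the 6 time points was 4.09 (SE 0.17, limma adjusted p = 0.000472), again the only member probe that passed, against 1.85% of all fitted probes higher on the mean, and it was 1.502 and 1.47 with normexp after loess and after median centring. With the slide as a block the slope was 1.32 and no longer passed (adjusted p = 0.88), in a fit in which no probe of the 20275 passed. The values at 5 and 10 min in these fits rest on signals not well above background, and those at 15, 30 and 60 min on control signals that were not. Against time in minutes, the log2 ratio of Rgs2 had Pearson's r = 0.89 and Spearman's rho = 1 (exact permutation over all 720 orders of the 6 time points, two-sided p = 0.00139 and 0.00278). Both are a description as well, and their p-values lend no support. Rgs2 was chosen with earlier results known, and the order follows its PACAP38 RNA over a control that was mostly not detected. Without the 60 and 120 min points, the farthest from the median time, r was 0.99 over the other 4, none of which has a measured control.

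By the processed ratios as they stand, the genes nearest to Rgs2 in their 6 log2 ratios, by the root mean square (RMS) difference over 20274 probes, were Egr3 (RMS 0.69), Klf4 (0.88), Nr4a3 (1.43), a transcript annotated as similar to Klf4 (1.67) and Nr4a2 (1.70). The order is not a ranking of measured folds, since the control of Rgs2 was not well above background before 120 min and neither of its RNAs was at 5 and 10 min. With normexp and loess the log2 ratio of Rgs2 at 30 min was 0.84 in place of 4.79, and the ranking was not repeated on those values. Egr3 is an early growth response factor, Klf4 a Krüppel-like factor, and Nr4a2 and Nr4a3 orphan nuclear receptors. The processed ratios of Egr3 from 15 to 120 min were 3.69, 44.5, 174 and 139. The control RNA of Egr3 was well above background on 0 arrays, so these ratios rest on a control that was not measured. The Nr4a3 probe nearest to Rgs2 is not the one with a fold of 449. Its ratios were 0.90, 41.7, 108 and 122 from 15 to 120 min. Its PACAP38 RNA was above background on 6 of the 12 arrays and its control on 3. The ratio of 0.90 at 15 min is thus not read as a later start than that of Rgs2. Klf4, measured in both RNAs on all 12 arrays, had folds of 10.1, 46.9, 104 and 81.4 at the same times. Nr4a2 had folds of 12.4, 26.5, 30.4 and 33.8, and it was at 5.07 by 10 min.

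Of the RGS genes with a probe on the array, those nearest to Rgs2 on chromosome 13 did not reach the detected range. Rgs13, Rgs1 and Rgs18, whose probes lie 127, 232 and 719 kb from that of Rgs2, were above background on 0 of the 12 arrays in either RNA.

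PACAP38 down-regulated Rgs4 at 120 min. The brighter of its 2 probes gave the brightest signals of the family. With PACAP38 in Cy5, its processed signals in the PACAP38 RNA were 27879, 26278, 31982, 31187 and 35762 from 5 to 60 min and 27943 at 120 min. On the same arrays, the control gave 26835, 24342, 27942, 28744 and 41042, and then 61877 at 120 min. With PACAP38 in Cy3, the PACAP38 signals were 27370, 31114, 31558, 31286 and 31945 from 5 to 60 min and 21160 at 120 min. The control signals of these arrays were 29169, 28575, 29788, 30299 and 39723, and 55071 at 120 min. The signals of the 2 RNAs overlapped at 5 and 10 min, those of PACAP38 were slightly above those of the control at 15 and 30 min and below them at 60 min, and the RNAs were farthest apart at 120 min.

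The folds of this probe from 5 to 30 min were 0.99, 1.08, 1.101 and 1.06, with single arrays between 0.94 and 1.14. The 60 min fold was 0.84 (0.87 and 0.80). The 120 min fold was 0.42 (0.45 and 0.38). At 120 min it was counted as lower on both arrays, the only member probe of 19, where 1.53% of all probes were counted as lower. 430 of the 18396 probes measured at that time had a smaller fold. After scaling of the arrays, the PACAP38 level was 31605 at 60 min and 16317 at 120 min, a ratio of 0.52 (0.55 and 0.49), and the control level was 37756 and 39171, a ratio of 1.04. These levels rest on 1 scaling between arrays. Before it the control signals were higher at 120 than at 60 min on both arrays. With normexp and loess the fold at 120 min was 0.42, and with normexp and median centring 0.38, although the latter was not counted on both arrays.

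The dimmer Rgs4 probe, which matched chr13:85536780-85536839, was not counted at any time. Its folds were 0.94 (0.83 and 1.05) at 60 min and 0.67 (0.59 and 0.77) at 120 min. At 5 min it read 0.81 on 1 array and 3.34 on the other, where its signals of 99.0 and 29.6 were not well above background against 391.5 and 483 on the first array. Its PACAP38 level after scaling was 0.36 times as high at 120 as at 60 min, and its control level 0.51 times. Both probes were thus below 1 at 120 min and differed in size.

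**Figure D3:**
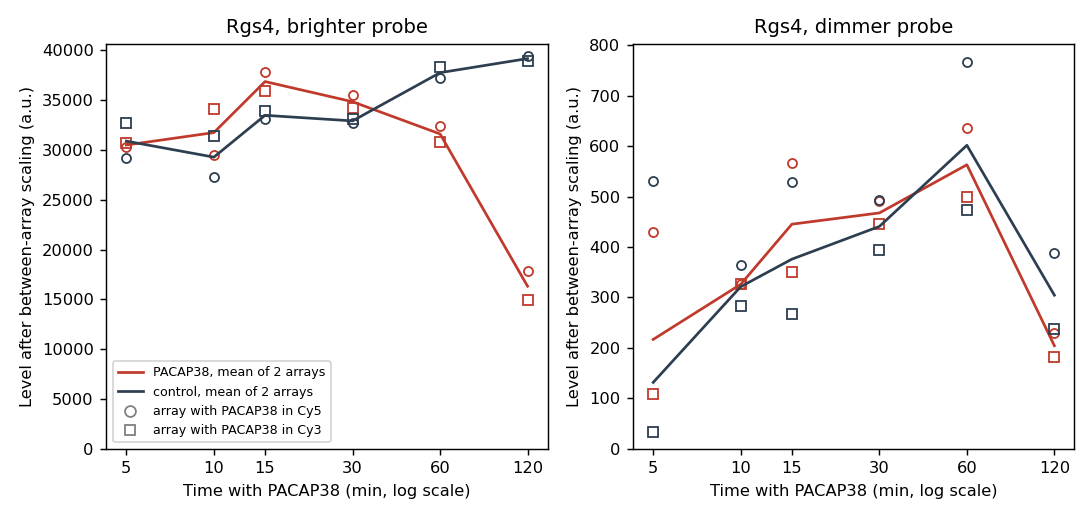
Levels of both Rgs4 probes after scaling of the arrays (arbitrary units, linear axis from 0) against time (min, log axis), red for PACAP38 and dark for control, lines through the geometric mean of 2 arrays and symbols for single arrays. In the brighter probe the PACAP38 level is 16317 at 120 min against 39171 in the control, while in the dimmer probe both levels are lower at 120 than at 60 min.

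The slope of the brighter Rgs4 probe was -0.24 per doubling of time (SE 0.08, 95% interval -0.42 to -0.07) and did not pass in limma (adjusted p = 0.082). On time in minutes the slope was -0.012 log2 units per min and passed (limma adjusted p = 0.000599), and without the 120 min point the slope on log2 time was -0.06 (adjusted p = 0.521). The slope of the dimmer probe was -0.22 (SE 0.05, limma adjusted p = 0.0405), against 3.81% of all fitted probes with a slope below 0 that passed. This slope was -0.02 with normexp and loess (limma adjusted p = 0.641), -0.07 with median centring (0.126) and -0.10 with PACAP38 in Cy5 alone (0.366), and none of these passed. It also did not pass with PACAP38 in Cy3 alone, with all probes, without the variance trend, with the slide as a block, or without the 5, 10, 15, 60 or 120 min point, with slopes between -0.18 and -0.45. It passed on time in minutes and without the 30 min point. Over the 6 time points the mean log2 ratio was -0.20 (SE 0.12) for the brighter probe and 0.07 (SE 0.07) for the dimmer, and neither passed (limma adjusted p = 0.353 and 0.63).

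**Figure D4:**
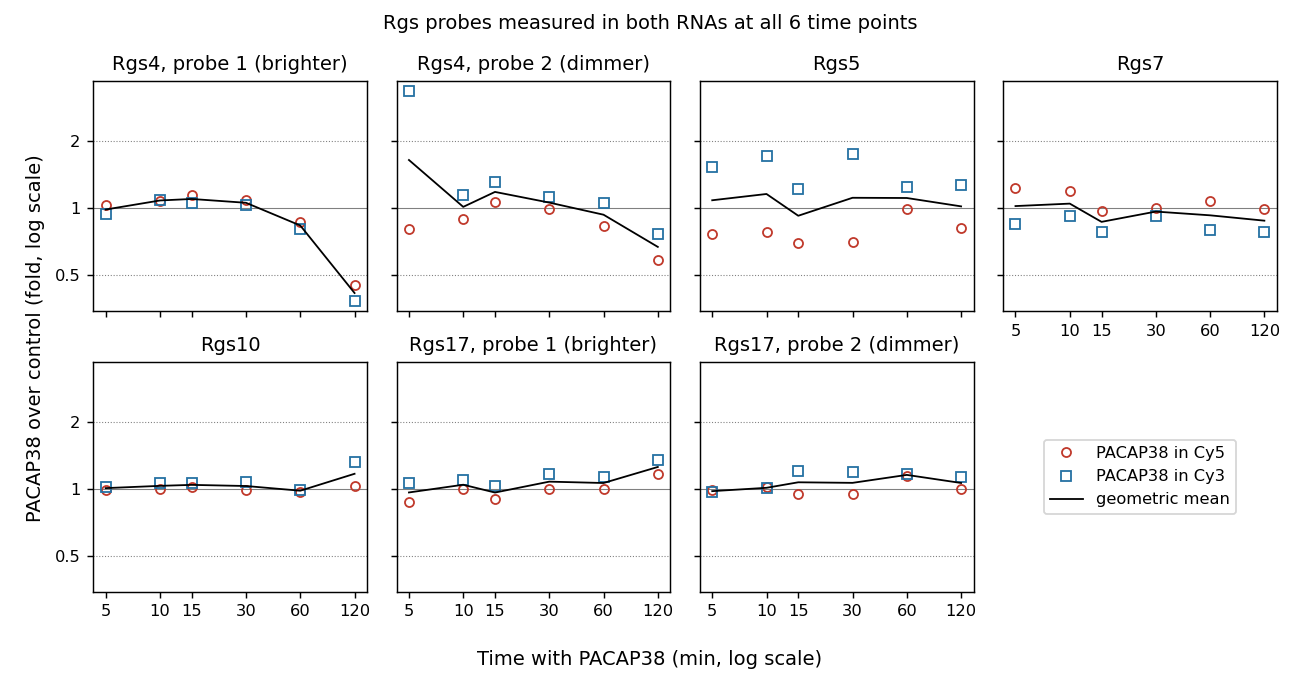
PACAP38 over control (fold, log axis) against time (min, log axis) for the 7 Rgs probes measured in both RNAs at all 6 time points, with circles for the array with PACAP38 in Cy5, squares for that with PACAP38 in Cy3 and a line for their geometric mean. Dotted lines mark folds of 2 and 0.5. Both arrays lie below 0.5 for the brighter Rgs4 probe at 120 min, and the circles and squares of Rgs5 stay on opposite sides of 1.

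Rgs5, Rgs7, Rgs10 and Rgs17 were detected in both RNAs and none of their probes was counted at any time. For Rgs5 the fold was between 0.93 at 15 min and 1.16 at 10 min. Its single arrays lay between 0.70 and 1.76, and the fold was above 1 on 6 of 6 arrays with PACAP38 in Cy3 and on 0 of 6 with PACAP38 in Cy5. The sign of the Rgs5 ratio thus followed the dye, and its signals were low, between 39.6 and 110. Rgs7 was brighter, with signals between 826 and 1751. Its fold was 1.02, 1.05, 0.87, 0.97, 0.93 and 0.88 from 5 to 120 min, and it was above 1 on 4 of 6 arrays with PACAP38 in Cy5 and on 0 of 6 with PACAP38 in Cy3.

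The fold of Rgs10 was between 0.98 and 1.04 from 5 to 60 min and 1.17 at 120 min, where the arrays read 1.03 and 1.32. The brighter Rgs17 probe was between 0.96 and 1.08 from 5 to 60 min and at 1.25 at 120 min (1.17 and 1.34). At 120 min Rgs10 and this probe read 1.08 and 1.15 with normexp and loess, and 0.95 and 1.01 with normexp and median centring. The other measured Rgs17 probe read 1.06 at 120 min (1.00 and 1.13), so the probes of this gene differed. A further Rgs17 probe was dim, with signals between 8.03 and 67.3, and read below 1 with PACAP38 in Cy5 and above 1 with PACAP38 in Cy3 at every time point, so no fold over its arrays is given. In limma the slope was 0.07 (95% interval -0.0018 to 0.14, adjusted p = 0.17) for the brighter Rgs17 probe, 0.03 (-0.04 to 0.10) for Rgs10, -0.04 (-0.11 to 0.02) for Rgs7 and -0.01 (-0.12 to 0.10) for Rgs5. None of these passed.

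Rgs3 had 4 probes. The brightest was above background in the PACAP38 RNA on 2 arrays and in the control RNA on 3 arrays, with signals between 10.1 and 52.8, and it was measured in both RNAs at 60 min alone, at a fold of 0.99 (0.83 and 1.18). Another Rgs3 probe was above background in the PACAP38 RNA on 1 array at 120 min, where it read 46.6 against 15.4 in the control, and on the dye-exchanged array 14.3 against 14.6. The other Rgs3 probes, as well as all 3 of Rgs8, the 1 of Rgs12 and both of Rgs16, were not well above background on any array, with signals of at most 46.6 for Rgs3, 28.4 for Rgs8, 15.5 for Rgs12 and 13.01 for Rgs16.

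Among 13 other RGS genes, 11 were found by name, with 15 probes, and none was counted at any time. Of all probes, 1.95% were counted as higher and 1.53% as lower at 120 min. With 15 probes, no count is near that share and is not read as a result about these genes. Rgs9, Rgs11 and Rgs19 were measured in both RNAs on all 12 arrays. At 120 min the fold was 0.84 (0.86 and 0.82) for Rgs9, which partners Gnb5 in the striatum, 1.09 (1.16 and 1.02) for Rgs11, and 0.69 (0.75 and 0.64) for Rgs19, which acts on Gi. The median log2 fold of these 3 was -0.25, beside -0.04 over 14475 genes measured at 120 min. For the 6 measured members, 1 probe each, the median was 0.13.

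The G proteins on which RGS proteins act were measured on the same arrays. None of the 13 G alpha genes, the 5 G beta genes or the 3 receptors of PACAP and VIP was counted at any time. These lists had 23, 11 and 6 probes. At 120 min 1.95% of all probes were counted as higher and 1.53% as lower, so the absence of counts is not read as a result about these genes. At 120 min the median log2 fold was 0.27 over 12 G alpha genes measured. The largest folds were 2.11 (1.94 and 2.30) for Gnai1, an inhibitory subunit, and 1.93 (1.80 and 2.06) for Gna13, a subunit of the same class as Gna12, so each was past 2 on 1 array. The smallest were 0.54 (0.53 and 0.56) for Gnaz, a subunit of the Gi class, and 0.71 (0.68 and 0.74) for Gna12. Gnas, the subunit of Gs, read 1.23 (1.19 and 1.26), and Gnaq, a target of Rgs2, 1.18 (1.27 and 1.098). The G beta genes measured read between 0.98 for Gnb1 and 1.27 for Gnb2, with 1.27 for Gnb3 and 1.04 for Gnb5, at a median log2 fold of 0.20. Adcyap1r1, the gene of PAC1, was between 0.94 and 1.05 at all 6 time points and 1.01 (0.91 and 1.12) at 120 min, and Vipr1 and Vipr2 were above background on 0 arrays.

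**Figure D5:**
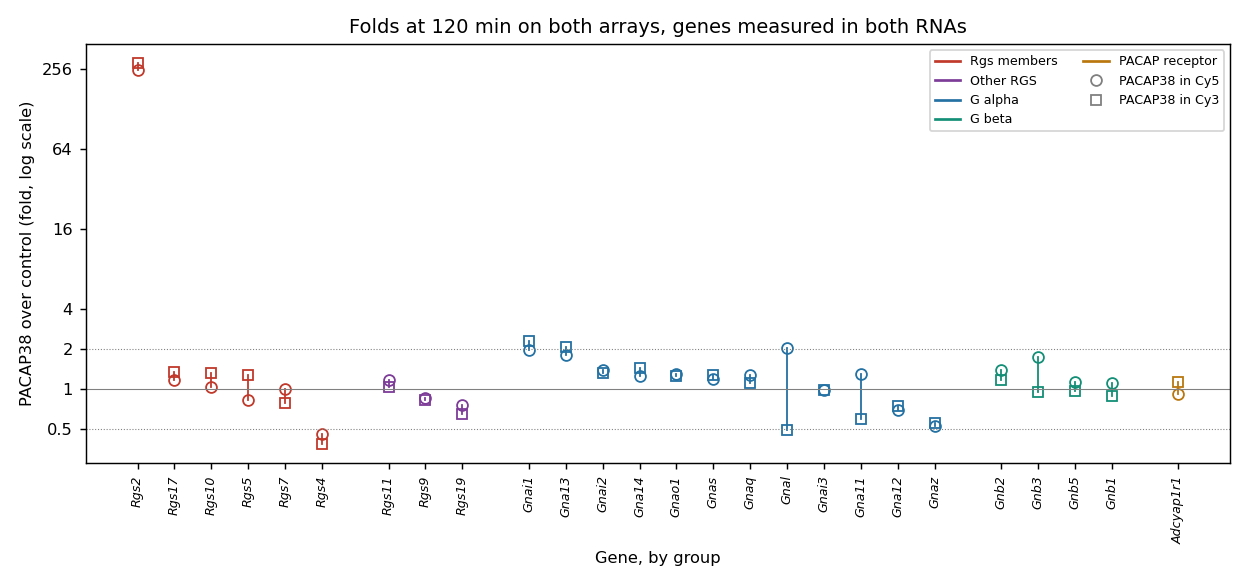
PACAP38 over control at 120 min (fold, log axis) for genes measured in both RNAs, 1 probe a gene, grouped as Rgs members, other RGS genes, G alpha, G beta and PACAP receptor genes, with circles and squares for the 2 arrays. Rgs2 at 253 and 285 lies above 2 on both arrays, and Rgs4 at 0.45 and 0.38 lies below 0.5 on both.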

How the data were processed

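PC12 cells were measured on 12 Agilent Whole Rat Genome 4x44K arrays. The authors scanned the arrays and processed them with Feature Extraction (12.0.3.1 per the file headers, 11.0.1.1 per the labels), which subtracted background and normalized the dyes by LOWESS. The deposited processed signals are intensities in arbitrary units, and the deposited p-value of each log ratio comes from the error model of that software. The authors also deposited a table of log10 ratios of Cy5 over Cy3, which equals the log10 ratio of the processed signals and was used as an alternative.

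Control and outlier spots were left out, ratios were turned to PACAP38 over control, log2 ratios of spots of a probe were averaged, and the arrays of a time point were averaged. The gene's value is that of its brightest probe by mean processed signal. Levels were scaled between arrays with Aquantile. Bounds set the bright RNA against the higher of the dim signal and the lowest signal well above background. limma 3.58.1 in R 4.3.3 fitted log2 time to 6 time points for probes with a detected RNA on both arrays of any time point, with the prior variance following signal and Benjamini-Hochberg adjustment at 0.05. The fit was tested on simulated data. The limma p-values rest on the scatter of the time points around the fitted line, since each time point is 1 pair of pools. They do not measure a spread between replicates. The number of arrays limits the precision. The named genes are all members with all probes, and per list the 2 largest and the 2 smallest folds at 120 min. Gnas, Gnaq and Gnb5 were added for their roles. Some listed genes are not reported here. The members and lists were chosen with earlier results of these data known. Alternatives were normexp with loess or median centring, single arrays, other count rules, other time scales, the slide as a block, other probe filters, each time point left out and, chosen after seeing the data, a prior variance without trend.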

Additional observations from a re-analysis of the deposited data

Results flagged for a closer look

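The control level of Rgs2 at 120 min lay apart from the other 5 control pools. It was 20.1 after scaling against 10.3 in the next highest pool, a gap of 0.788 of the whole range on the log2 scale, as for the other gaps here. This pool was the only one in which the control RNA of Rgs2 was well above background, on 1 of 2 arrays, and the gap is measured against 5 levels that were not well above background. The control level of the brighter Rgs17 probe at 60 min was the lowest of the 6 pools, at 319 against 355 in the next, a gap of 0.627 of the range. About 1 in 20 such groups exceeds this limit by chance, and 7 members with a control signal above background on any array were looked at. Rgs2 is among them only through the 120 min pool itself. Rgs8, above background on 0 arrays and so left out, also exceeded the limit, with a control level of 5.02 at 5 min against 9.23 in the next pool, a gap of 0.787 of the range.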

How the results depend on the processing

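The Rgs2 log2 fold at 120 min of 8.07 was 4.56 with normexp and loess and 4.35 with normexp and median centring, and the Rgs4 fold of -1.26 was -0.92 as the mean over both its probes. The number of member probes counted higher at 15 and at 30 min was 0 in place of 1 with normexp and either normalization, and the 1 counted lower at 120 min was 0 with median centring. Asking for both RNAs above background on both arrays left 0 higher at 15, 30, 60 and 120 min, because the Rgs2 control is dim. Without the p-value limit, 1 (Rgs2) was counted at 10 min. With single arrays the counts higher ranged from 0 to 2 at 5 min, 0 to 1 at 10 min, 1 to 2 at 60 min and 1 to 2 at 120 min, adding Rgs17, Rgs4 and Rgs3 probes, while between 0.746% and 3.70% of all probes were then counted as higher at a time point. The Rgs2 slope was 1.32 with the slide as a block (limma adjusted p = 0.88) and passed under the other alternatives that could fit it. All of these fits include Rgs2 through its PACAP38 RNA, with a control well above background on 1 of 12 arrays. Passing in them is thus a description and does not bear on stability. The brighter Rgs4 probe passed with median centring (slope -0.29), on minutes (-0.012) and without 5 min (-0.35). The number of member probes past the slope threshold, 2, was 1 with normexp and loess, with either array alone, with all probes, without the variance trend and without 10, 15, 60 or 120 min, and 0 with the slide as a block or with both RNAs above background on every array, where Rgs2 could not be fitted. With time in minutes that number was larger, since Rgs2 and both Rgs4 probes passed. Past the threshold for the mean over 6 time points were 1, and 2 to 4 with single arrays, where Rgs5 turned from 0.09 to -0.34 with PACAP38 in Cy5 alone. In all, 2553 probes higher and 2216 lower of 20238 passed with PACAP38 in Cy5 alone and 2717 and 4088 of 20243 with PACAP38 in Cy3 alone, so the members' count is read against a large background. Probes passing the slope in all were 684 higher and 773 lower. They were 106 and 41 without the variance trend, 19 and 2 without 10 min, 85 and 13 without 15 min, 82 and 13 without 60 min, 114 and 75 without 120 min, 301 and 135 with all probes, 451 and 379 with PACAP38 in Cy3 alone, 719 and 2432 with median centring and 2487 and 3788 on minutes. Only 1 Rgs2 probe exists, so no other probe could be tried. No paired analysis was possible because each ratio is already a pair, PACAP38 over the control of the same time point on 1 array, and the labels give no other pairing. Median centring also moved the median log2 ratio of all measured probes to 0.11 at 15 min and -0.11 at 120 min. The other 160 recomputed values of these results stayed on the same side of the limit where they had a test, within 1.5 times where they were counts, and within the spread between arrays where they were folds. Those from the deposited ratios repeat the same values, and a fold on 1 of 2 arrays lies within their spread by construction, so neither bears on stability. The causes were not tested.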
